A study of Mus musculus with 11 samples.

Results

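Genes that act in the degradation and clearance of amyloid-beta (Aβ) were followed in the cortex of 5xFAD mice with and without Abi3. They were chosen by symbol, not by their values, and each symbol matched 1 Ensembl gene, so that they are 10 of the 53700 gene identifiers in the count tables. Proteases that can cut Aβ or activate a protease that does are encoded by 6 of them: Mme (neprilysin), Ide (insulin-degrading enzyme), Ece1 and Ece2 (endothelin-converting enzymes), Plat (tissue plasminogen activator) and Mmp14 (a membrane-anchored matrix metalloproteinase). Lrp1 and Vldlr encode lipoprotein receptors, and Itm2b and Itm2c encode membrane proteins with a BRICHOS domain.

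Aβ is cut from the amyloid precursor protein, and its level in the brain depends on removal as well as on production. Neprilysin and insulin-degrading enzyme are the best known of the peptidases that break it down, plasmin made by tissue plasminogen activator is another, and Lrp1 takes up Aβ together with carriers such as apolipoprotein E. The BRICHOS proteins Itm2b and Itm2c bind the amyloid precursor protein and can limit its processing, and BRICHOS domains slow the growth of Aβ fibrils.

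Cortical RNA was taken at 8 months from 11 female 5xFAD mice, 6 with intact Abi3 (Abi3_WT, the wild types) and 5 knockouts (Abi3_KO), and 1 count table was made for each animal. The labels give the strain as C57BL/6. Both groups carried the 5xFAD transgenes, which the Thy1 promoter drives in neurons. By the study's methods, all mice were heterozygous for a Trem2 variant that came with the SJL background, and the knockout was a definitive-null deletion made in C57BL/6N. Mice were perfused with saline and the cortex of the right hemisphere was dissected. Cortex without the transgenes was not analysed here, so every value describes mice that deposit amyloid.

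Of the 6 proteases 5 are zinc metalloproteases, and their relation can be read in their coding sequence. The motif HEXXH (histidine, glutamate, any pair of residues, histidine), or its inverted form HXXEH in Ide, holds the zinc ion and was searched in frame on the coding strand of each canonical transcript. Each of the 5 genes held 1 match, and Plat, a serine protease, and the receptor and BRICHOS genes held none. HEXXH was present in 717 of 21770 canonical mouse coding sequences (3.29%) and HXXEH in 504 (2.32%). The windows below come from GRCm39 and show the motif in capitals with 15 bases on each side, to show how close the related genes are where their function is shared.
Mme, chr3:63269442-63269456, plus strand, exon 18 of 23: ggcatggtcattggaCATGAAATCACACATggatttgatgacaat
Ece1, chr4:137684483-137684497, plus strand, exon 17 of 20: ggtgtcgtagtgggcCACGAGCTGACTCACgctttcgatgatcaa
Ece2, chr16:20462640-20462654, plus strand, exon 16 of 19: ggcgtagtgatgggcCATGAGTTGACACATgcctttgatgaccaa
Mmp14, chr14:54675084-54675098, plus strand, exon 5 of 10: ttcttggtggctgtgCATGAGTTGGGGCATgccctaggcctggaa
Ide, chr19:37306535-37306549, minus strand, exon 3 of 25: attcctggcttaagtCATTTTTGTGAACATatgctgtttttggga
The coordinates are those of the motif. Ece1 and Ece2 had the same base at 34 of 45 positions of the window, Mme and Ece2 at 33, Mme and Ece1 at 26, and Mme and Mmp14 at 20.

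The relatedness of these genes bears on how reads are assigned to them. The longest identical stretch shared by the Ece1 and Ece2 transcripts was 17 bases, as for Lrp1 and Vldlr, and it was 14 bases for Itm2b and Itm2c and for Mme and Ece1, against reads of 76 bases. Ece2 was the only 1 of the 10 genes with a match of at least 76 bases and 90% identity to another annotated gene in the last 500 bases of its transcript, where a 3′ method reads. The match is to Eef1ece2, a read-through gene on the same strand that shares 2932 bases of the Ece2 transcript and had no count in any animal. In the annotation used here, reads that lie within shared exons alone are given to neither gene by the counting rule, and 3693 of 6630 exonic bases of Ece2 (55.7%) are its own, 603 of them beyond the end of Eef1ece2. Whether the release used for counting holds the same shared exons was not checked, so the share of Ece2 reads that was counted is not known.

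Reads in genes numbered 3307854 to 5501958 per wild type and 3202310 to 3933819 per knockout (two-sided exact permutation test of the means, p = 0.13). Reads that aligned outside genes differed more, with 59.3 to 68.8 for each 100 reads in genes in the wild types and 49.8 to 62.5 in the knockouts (exact permutation test, p = 0.00866). Their part in the results was not tested beyond a fit with this share as a covariate, in which 3 genes of all those tested passed the threshold and none of the 10. Because the share differed between genotypes, that fit separates it from genotype only poorly. Raw counts of Abi3, the targeted gene, were 10 to 38 in Abi3_WT and 0 to 2 in Abi3_KO, 4 of which had none. In bulk tissue, fewer cells of a type and less RNA per cell cannot be told apart.

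The comparison asked whether RNA of the Aβ-degrading and Aβ-clearing genes differed between genotypes. None of the 10 genes passed the threshold in DESeq2 (Benjamini-Hochberg adjusted p at or below 0.05), against 95 of 17626 genes tested, or 0.539%, and 1.46% of the 6487 genes given an adjusted p. Of the 10 genes, 6 were given an adjusted p in that fit, and the other 4 could not pass there. In edgeR and limma, which called 0.21% and 0.113% of the genes tested, none of the 10 passed either. An unadjusted p under 0.05 was given to 8.58% of all genes in DESeq2, and to 0 of the 10 in DESeq2, edgeR or limma. In all 10 genes the values of the groups overlapped, and 1.04% of all genes had groups that did not overlap. Log2 fold changes (Abi3_KO against Abi3_WT) were above 0 in 5 and below 0 in 5, with a median of 0.0093 beside -0.0033 over all genes tested. With so small a share of genes called in this experiment, 0 of 10 is near the background and is no result about these genes as a group. What the data give is the size of difference that each gene's interval still allows.

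**Figure D1:**
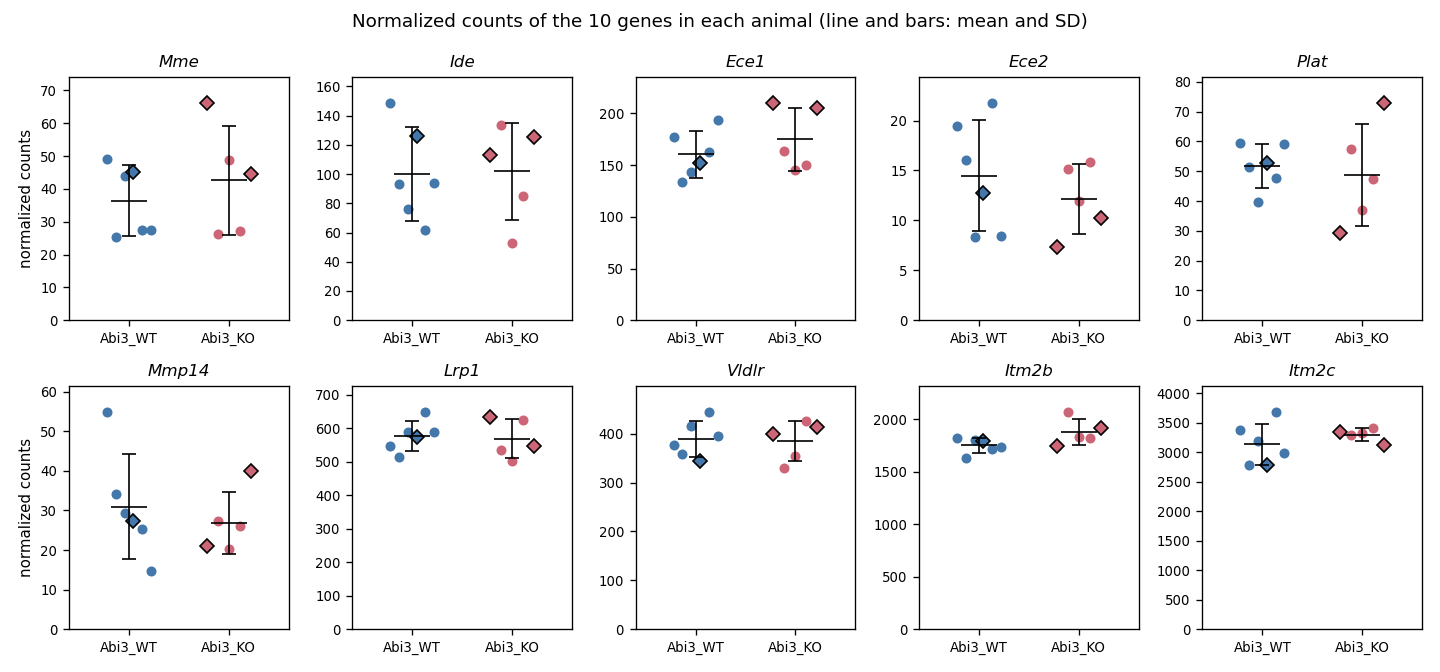
Each panel plots the normalized count (y axis, from 0) of 1 gene in 6 Abi3_WT animals (blue) and 5 Abi3_KO animals (red), with the mean and SD as a line and bars; diamonds with a black edge mark the 3 animals with over 200 summed CPM of choroid plexus markers. The groups overlap in every panel. Ece1 in Abi3_KO is highest in the 2 animals drawn as diamonds, at 205 and 210, but its Abi3_WT diamond, at 152, lies among the other wild types.

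Among the proteases, Mme was counted thinly, with 24 to 63 reads per animal. Normalized counts (reads divided by the size factor of the library) of Mme were 66.1, 26.3, 48.9, 27.1 and 44.4 in the 5 Abi3_KO animals, and the lowest, median and highest of the 6 Abi3_WT animals were 25.4, 35.7 and 49.1. Abi3_KO replicate 1 was above all others, and otherwise the groups covered the same range. In both genotypes the animals lay apart: 5 animals, 3 Abi3_WT and 2 Abi3_KO, had 25.4 to 27.5 normalized counts and the other 6 had 43.9 to 66.1. Wild types averaged 36.4 ± 10.7 (SD, n = 6) and knockouts 42.6 ± 16.6 (SD, n = 5), a log2 fold change of 0.23 with an SE of 0.301 (adjusted p = 0.923 with independent filtering off). Without Abi3_KO replicate 1 the log2 fold change was 0.016. The 95% interval of the fold ran from 0.780 to 1.77, which leaves room for a sizable change in either direction. Mme lies at chr3:63148889-63293451 on the plus strand.

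Ide varied more between animals than its depth would give. Its normalized counts were 113, 133, 52.5, 84.7 and 125 in Abi3_KO, with 61.6, 93.6 and 148 as the lowest, median and highest in Abi3_WT. The lowest animal of all was a knockout and the highest a wild type, so that each group spanned most of the range of the other. The means were almost level, at 99.9 ± 32.1 for the wild types (SD, n = 6) and 101.8 ± 33.1 for the knockouts (SD, n = 5). The log2 fold change was 0.034 with an SE of 0.242 (adjusted p = 0.974 in DESeq2), and the fold interval ran from 0.737 to 1.42. Ide lies at chr19:37245688-37340729 on the minus strand.

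Ece1 encodes a membrane metalloprotease that activates endothelin and also cuts Aβ. Its normalized counts were 210, 164, 146, 150 and 205 in Abi3_KO, and 133, 157 and 194 marked the lowest, median and highest in Abi3_WT. Abi3_KO replicates 1 and 5 stood above every wild type, and the other 3 knockouts lay among the wild types. The means of 160 ± 22.3 (SD, n = 6) and 175 ± 30.4 (SD, n = 5) gave a log2 fold change of 0.13 with an SE of 0.146 (adjusted p = 0.780 in DESeq2, fold interval 0.898 to 1.34). Replicates 1 and 5 are also the knockouts with RNA of choroid plexus, as described below for the tissue markers. Ece1 lies at chr4:137589530-137692542 on the plus strand.

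Ece2, the related enzyme with a preference for acidic compartments, had the fewest counts, 7 to 30 reads per animal. Abi3_KO animals had 7.34, 15.2, 11.9, 15.8 and 10.2 normalized counts, and Abi3_WT animals had 8.37 at the lowest, 14.4 at the median and 21.7 at the highest. The ranges overlapped over most of their length. The log2 fold change of -0.27 had an SE of 0.436, and the fold interval of 0.459 to 1.5 was the widest of the 10 on the log2 scale (adjusted p = 0.946 with independent filtering off). Ece2 lies at chr16:20448332-20465273 on the plus strand.

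Plat, the serine protease that turns plasminogen into plasmin, spread further in the knockouts than in the wild types. Its normalized counts were 29.4, 57.6, 37.0, 47.4 and 72.8 in Abi3_KO, and in Abi3_WT the lowest, median and highest were 39.7, 52.2 and 59.4. The lowest and the highest of all 11 animals were knockouts, with replicates 1 and 3 below the wild types and replicate 5 above them. The SD was 17.1 (n = 5) in Abi3_KO and 7.42 (n = 6) in Abi3_WT; the difference in spread was not tested. The means of 48.8 and 51.7 gave a log2 fold change of -0.081 with an SE of 0.248 (adjusted p = 0.979 with independent filtering off, fold interval 0.675 to 1.32). Plat lies at chr8:23247709-23272871 on the plus strand.

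Mmp14, which degrades matrix and activates other matrix metalloproteinases, had 21.0, 27.3, 20.3, 26.0 and 39.8 normalized counts in Abi3_KO. In Abi3_WT the lowest, median and highest were 14.8, 28.3 and 54.8. Both extremes were wild types, and Abi3_WT replicate 1, the highest, set the sign of the difference: the log2 fold change was -0.20 with an SE of 0.335 with all animals and 0.028 without it. The fold interval ran from 0.553 to 1.37 (adjusted p = 0.950 with independent filtering off). Mmp14 lies at chr14:54668878-54682821 on the plus strand.

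The lipoprotein receptors were measured more precisely. Lrp1, a large endocytic receptor of neurons, glia and vessel cells, had 632, 535, 503, 626 and 547 normalized counts in Abi3_KO, and 515, 581 and 647 as the lowest, median and highest in Abi3_WT. Knockouts lay on both sides of the wild-type median. The means were 577 ± 44.6 (SD, n = 6) and 569 ± 57.6 (SD, n = 5), with a log2 fold change of -0.020, an SE of 0.0878 and a fold interval of 0.875 to 1.11 (adjusted p = 0.954 in DESeq2). Changes of Lrp1 RNA beyond these bounds lie outside the 95% interval, the narrowest upper bound on a fold among the 10. Lrp1 lies at chr10:127374012-127457017 on the minus strand.

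Vldlr, a receptor for apolipoprotein E and reelin, had 399, 329, 355, 427 and 414 normalized counts in Abi3_KO. The lowest, median and highest in Abi3_WT were 343, 386 and 444. The knockouts fell on either side of the wild-type median, and the lowest of them was just under the wild-type range. The log2 fold change was -0.016 with an SE of 0.101 and a fold interval of 0.862 to 1.13 (adjusted p = 0.973 in DESeq2). Vldlr lies at chr19:27193862-27231631 on the plus strand.

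The BRICHOS genes came closest to a difference, and both estimates were above 0. Itm2b, also called Bri2, had 1744, 2069, 1832, 1826 and 1916 normalized counts in Abi3_KO, and 1637, 1765 and 1827 as the lowest, median and highest in Abi3_WT. Of the 5 knockouts 3 were above every wild type, 1 was just under the highest of them and replicate 1 lay below the wild-type median. The means of 1752 ± 69.8 (SD, n = 6) and 1877 ± 123 (SD, n = 5) gave a log2 fold change of 0.10 with an SE of 0.0589, a fold interval of 0.990 to 1.16 and an adjusted p of 0.503 in DESeq2. A two-sided exact permutation test of Itm2b alone gave p = 0.0519, the lowest of the 10 and not adjusted for them. Itm2b lies at chr14:73566774-73622874 on the minus strand.

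Itm2c, or Bri3, the member of the family most tied to the brain, had 3338, 3292, 3318, 3414 and 3122 normalized counts in Abi3_KO. Abi3_WT animals ran from 2780 to 3675 around a median of 3084. All 5 knockouts were above that median and inside the wild-type range. The means were 3131 ± 353 (SD, n = 6) and 3297 ± 108 (SD, n = 5), with a log2 fold change of 0.075, an SE of 0.0711 and an adjusted p of 0.729 in DESeq2 (fold interval 0.956 to 1.16). Itm2c lies at chr1:85821825-85836428 on the plus strand.

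**Figure D2:**
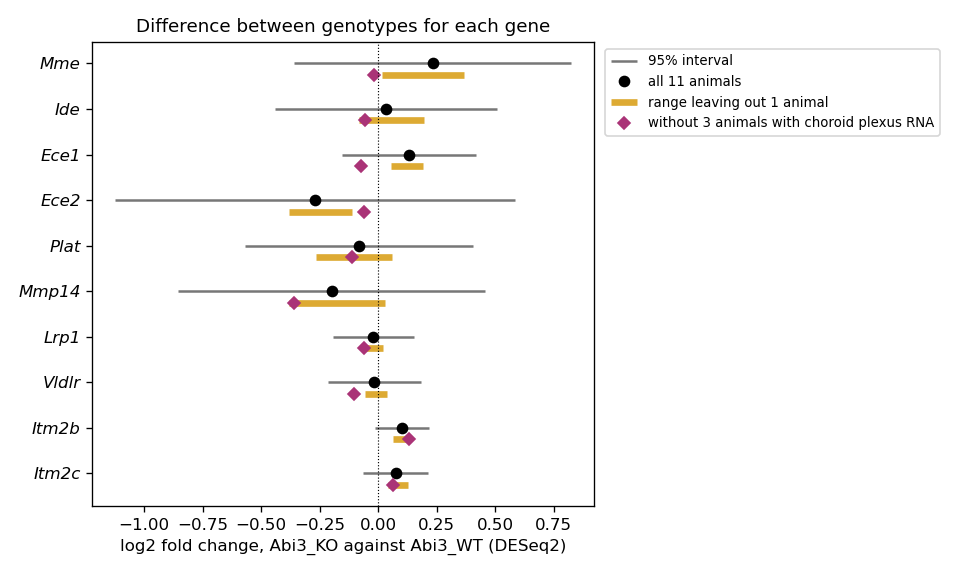
Log2 fold changes of the 10 genes (x axis, Abi3_KO against Abi3_WT) are drawn as black points with 95% intervals as grey lines; yellow bars span the estimates with each animal left out in turn, and purple diamonds are the estimates without the 3 animals with choroid plexus RNA. All 10 intervals hold 0, and Mme, Ide and Ece1 move from above 0 to -0.016, -0.058 and -0.074 at the diamonds.

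The 10 genes differed in how far animals of 1 genotype spread and in how much of it the depth accounts for. Within genotype, the coefficient of variation was 5.37% for Itm2b, 8.50% for Itm2c, 8.86% for Lrp1 and 10.1% for Vldlr. It was 15.7% for Ece1, 25.2% for Plat, 32.3% for Ide, 34.8% for Mme, 35.6% for Ece2 and 38.6% for Mmp14. Counting error alone would give 27.0% for Ece2, 18.6% for Mmp14, 16.2% for Mme and 10% for Ide. Mmp14, Mme and Ide thus varied well beyond their counting error, while most of the spread of Ece2 lay within what its sparse reads alone would give.

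**Figure D3:**
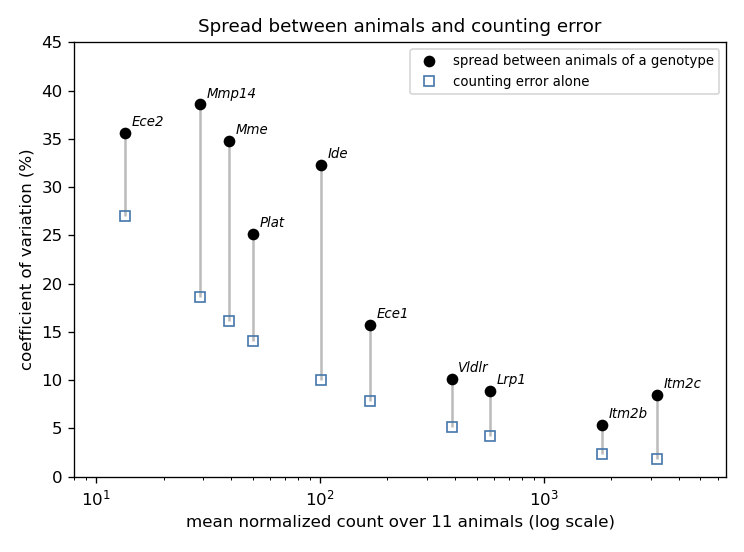
The coefficient of variation in percent (y axis) is plotted against the mean normalized count over 11 animals (x axis, log scale) for the 10 genes; filled points are the spread between animals of a genotype and open squares the part that counting error alone would give. Ece2 lies closest to its square in proportion, at 35.6% against 27.0%, and Ide and Itm2c lie far above theirs, at 32.3% against 10% and 8.50% against 1.77%.

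Markers of tissue next to the cortex were uneven between animals. Of 74 marker genes of 13 cell or tissue types, 73 were tested and 0 passed the threshold in DESeq2, edgeR or limma (4, 13 and 14 had an unadjusted p under 0.05), and no marker was at 0 in all animals. DESeq2 gave an adjusted p to 45 of the 73, and the rest could not pass in that fit. Over all genes tested it called 0.539%, and 8.58% had an unadjusted p under 0.05. Summed CPM (counts scaled by all reads in genes) of 6 excitatory neuron markers was 3529 to 4345 in Abi3_WT and 3437 to 4695 in Abi3_KO, so the labelled cortex carried its defining markers. The 5 choroid plexus markers summed to 15.6 to 971 CPM in Abi3_WT and 21.6 to 634 CPM in Abi3_KO. The 3 animals over 200 CPM were Abi3_WT replicate 4 with 971, Abi3_KO replicate 1 with 511 and Abi3_KO replicate 5 with 634.

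Of the 10 genes, Ece1 and Ece2 alone had knockout values that separated with these animals, in opposite directions. With 2 knockouts against 3, a gene can easily separate by chance. The share of all genes that do so was not computed, so this is no result about Ece1 and Ece2. Ece1 had 205 and 210 normalized counts in the 2 knockouts with choroid plexus RNA and 146 to 164 in the 3 without, but in wild types the animal with choroid plexus RNA had 152, inside the 133 to 194 of the other 5. Ece2 had 7.34 and 10.2 in those 2 knockouts and 11.9 to 15.8 in the other 3, and 12.8 in the wild type with choroid plexus RNA, inside the 8.37 to 21.7 of the others. For Ece2 this rests on 7 and 9 reads against 15, 10 and 14. Without the 3 animals the log2 fold change of Ece1 was -0.074, that of Ece2 -0.059, that of Mme -0.016 and that of Ide -0.058, and 0 of the 10 genes passed the threshold among the 27 genes that did. That fit gave no adjusted p to Mme, Ide, Ece1, Ece2, Plat and Mmp14, so they could not pass in it. All 7 markers of striatal projection neurons, cells in which Mme is abundant, had log2 fold changes below 0, with a median of -0.26 and none past the threshold. They summed to 557.6 to 864.3 CPM in Abi3_WT and 434.2 to 725.5 CPM in Abi3_KO. Other lists were as one-sided: all 6 oligodendrocyte markers (median 0.15) and all 4 hippocampal markers (0.22) lay above 0. So did 7 of 8 microglia markers (0.20), and all 4 blood markers tested (-1.1) lay below 0. Blood markers summed to 6.73 to 97.4 CPM in Abi3_WT and 2.09 to 106.8 CPM in Abi3_KO. The part of striatal RNA in the values of Mme was not tested.

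**Figure D4:**
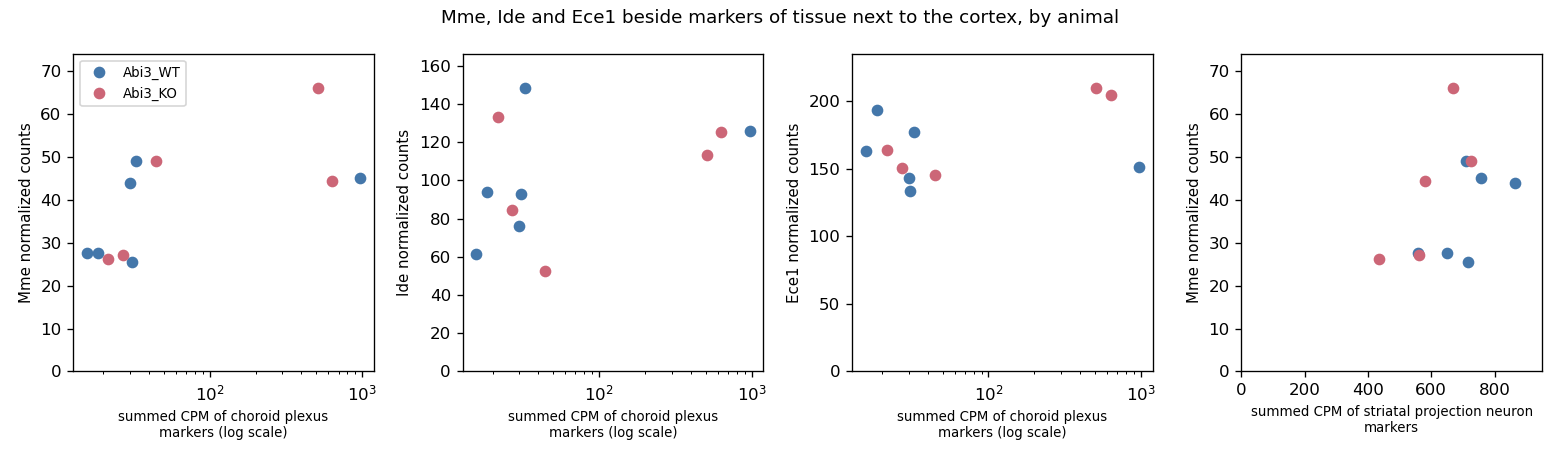
Normalized counts of Mme, Ide and Ece1 (y axes, from 0) are plotted against the summed CPM of choroid plexus markers (x axes, log scale), and Mme also against that of striatal projection neuron markers, with 1 point per animal (blue Abi3_WT, red Abi3_KO). The 3 animals at the right of the log axes, at 511, 634 and 971 CPM, include the 2 highest Ece1 values but not the highest Ide value of 148. The animal at 971 CPM had an Ece1 value of 152, among those of the other wild types.

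The patterns of Mme and Ide over animals were set beside those of all genes with a mean count of at least 100. Taking log2(normalized count + 1) centred within genotype over the 11 animals, the genes most like Mme were Caprin1 (Pearson r = 0.895, Spearman rho = 0.873), Fbxw2 (r = 0.889, rho = 0.855) and Rabggtb (r = 0.889, rho = 0.818). Those most like Ide were Atxn2 (r = 0.881, rho = 0.909), Pdrg1 (r = 0.860, rho = 0.855) and Slu7 (r = 0.842, rho = 0.782). These are the highest of 5096 and 5095 genes, from points that share library, depth and tissue composition, and they describe these animals alone.

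Genes that act around the 10 were counted by role. Of 48 further genes in 6 roles, 45 were tested and 0 passed the threshold in DESeq2, edgeR or limma, with 1 unadjusted p under 0.05 in DESeq2, 1 in edgeR and 2 in limma. DESeq2 gave an adjusted p to 26 of the 45, and the rest could not pass in that fit. Over all genes tested it called 0.539%, so 0 is near the background, and 8.58% had an unadjusted p under 0.05. Log2 fold changes were above 0 in 23 and below 0 in 22, with a median of 0.0034. Plg, Lrp2 and Ager had too few reads to be tested.

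Of 11 further proteases, only 3 were given an adjusted p in DESeq2, 0 passed the threshold and the median log2 fold change was -0.076. Htra1, a secreted serine protease, averaged 297 ± 41.3 normalized counts across wild types (SD, n = 6) and 270.2 ± 45.2 across knockouts (SD, n = 5), a log2 fold change of -0.13 with an SE of 0.130 (adjusted p = 0.743 in DESeq2). Nln, which encodes the peptidase neurolysin, averaged 112 ± 14 (SD, n = 6) and 97.7 ± 32.1 (SD, n = 5) likewise, a log2 fold change of -0.20 with an SE of 0.197 (adjusted p = 0.745 in DESeq2). Both differences were within the spread between animals.

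Of 8 genes for protease inhibitors, 5 were given an adjusted p, 0 passed and the median was 0.039. Timp2, an inhibitor of matrix metalloproteinases including Mmp14, had a log2 fold change of 0.11 with an SE of 0.105. Serpine2, a serpin that blocks plasminogen activators and thrombin, had one of -0.14 with an SE of 0.0991. Serpini1 encodes neuroserpin, the main inhibitor of tissue plasminogen activator in the brain, and is named after its values were seen because it alone had an unadjusted p under 0.05 in DESeq2. Its normalized counts averaged 420 ± 70.9 across wild types (SD, n = 6) and 496 ± 44.3 across knockouts (SD, n = 5), with all 5 knockouts above the wild-type mean and the groups overlapping. The log2 fold change of 0.24 with an SE of 0.117 did not pass the threshold (adjusted p = 0.372 in DESeq2). Abi3_WT replicate 2 was the lowest, at 289.7 normalized counts against 385 to 467 in the other wild types, and without it the log2 fold change was 0.15 (adjusted p = 0.390). Most alternatives kept an unadjusted p under 0.05 for Serpini1, but not all. With DESeq2 it was 0.386 with reads outside genes as a covariate, 0.233 with reads in genes as a covariate and 0.125 without Abi3_KO replicate 3.

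Of 12 receptors and transporters, 10 were given an adjusted p, 0 passed and the median was -0.046. Sorl1, a sorting receptor for the amyloid precursor protein, averaged 1225 ± 49.5 normalized counts across wild types (SD, n = 6) and 1215 ± 177 across knockouts (SD, n = 5), a log2 fold change of -0.011 with an SE of 0.0839. Lrp1b, a relative of Lrp1, had one of -0.11 with an SE of 0.0984. Among 4 genes of receptor ligands and turnover the median was -0.015, with 0.039 for Reln (reelin, a ligand of Vldlr; SE 0.153) and 0.024 for Dab1, the adaptor that relays the reelin signal (SE 0.117). None of the 4 passed the threshold, and 2 of them were given an adjusted p.

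Of 6 carrier proteins that bind Aβ, 4 were given an adjusted p, 0 passed and the median was 0.024. Apoe, the main lipid carrier made by astrocytes, averaged 5774 ± 760.2 normalized counts across wild types (SD, n = 6) and 5754 ± 757 across knockouts (SD, n = 5), a log2 fold change of -0.0049 with an SE of 0.0913. Cst3, which encodes the protease inhibitor cystatin C, averaged 7478 ± 961 (SD, n = 6) and 7494 ± 817 (SD, n = 5) likewise, a log2 fold change of 0.0034 with an SE of 0.0853. Both genes were level between the genotypes within intervals of -0.18 to 0.17 and -0.16 to 0.17 on the log2 scale.

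Of 4 genes that partner with or process BRICHOS proteins, 2 were given an adjusted p, 0 passed and the median was 0.087. Sppl2a, an intramembrane protease that cuts Itm2b, had a log2 fold change of -0.12 with an SE of 0.126, and Itm2a, the other gene of the Itm2 family, had one of 0.045 with an SE of 0.161. The estimate for Itm2a was far smaller than its error, so its direction relative to Itm2b and Itm2c is not known.

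**Figure D5:**
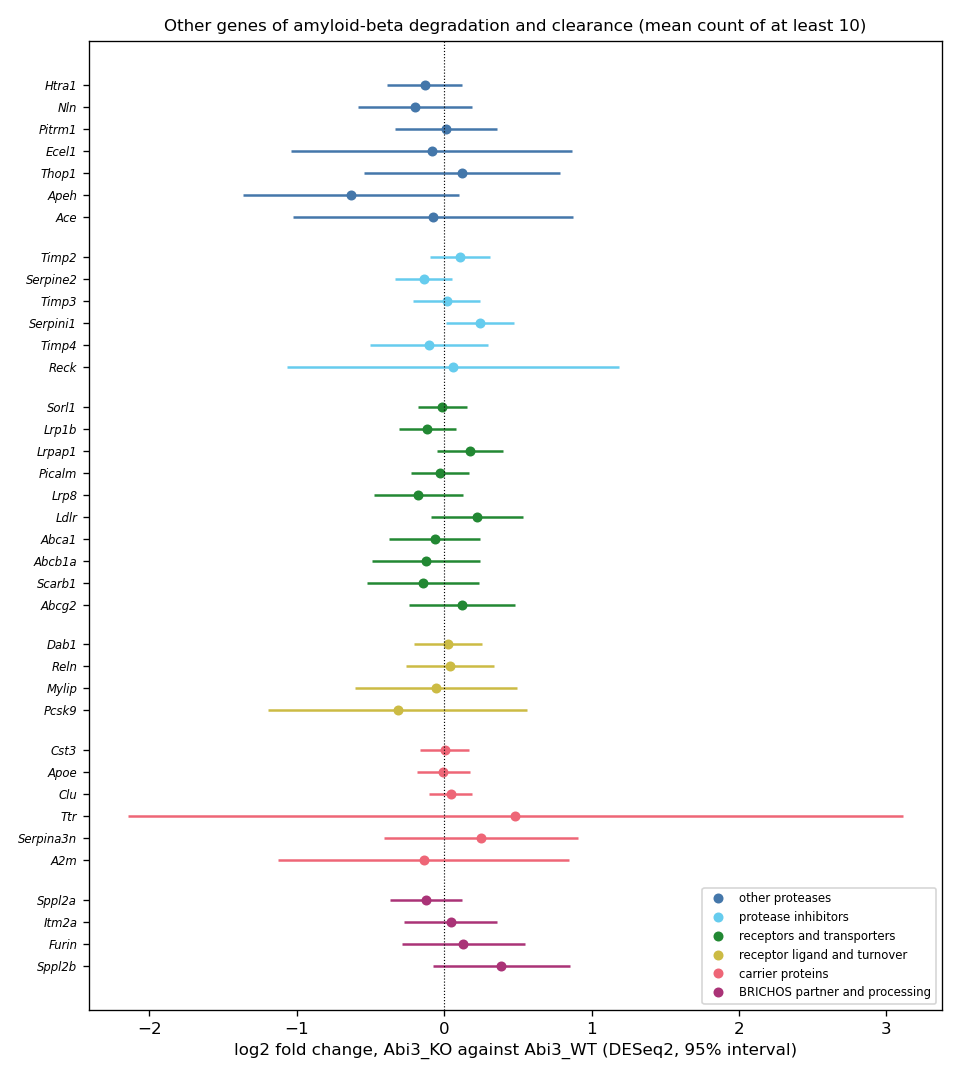
Log2 fold changes (x axis, Abi3_KO against Abi3_WT) with 95% intervals are shown for the 37 further pathway genes with a mean count of at least 10, coloured by role. The interval of Serpini1 alone leaves 0 out, and Ttr, a choroid plexus transcript, has the widest interval, from -2.15 to 3.12.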

How the data were processed

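Cortical RNA of 11 female 5xFAD mice (6 Abi3_WT and 5 Abi3_KO) was sequenced by QuantSeq, a 3′ mRNA method. The authors aligned trimmed 76-base single-end reads to GRCm39 with STAR (2.7.3a) and counted uniquely aligned reads per Ensembl gene, with strand, in HTSeq (0.9.1). The authors deposited these counts without normalizing them, and they are of reads, not molecules. All columns of the count tables were those of these samples, and tallies of reads given to no gene stayed out of the library sizes.

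Symbols and positions were looked up in a GENCODE annotation of GRCm39 that is later than the Ensembl release behind the counts, which matched 52610 of 53700 identifiers (98.0%). Coding windows were read from its transcripts, and near-identical transcripts were searched with BLAST (2.17.0).

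Genotype was tested with DESeq2 (1.42.0, R 4.3.3) over all genes with the design and filters of the study: a total count of 10 or more to be fitted (19035 genes), a mean normalized count of 1.5 or more to be kept (17626), and a threshold of 0.05 on the p adjusted by Benjamini-Hochberg. DESeq2 gave an adjusted p to the 6487 genes above a mean count of 70.39 (independent filtering, aimed at 0.05); 6 of the 10 genes had one, and for Mme, Ece2, Plat and Mmp14 the value with this filtering off is given. Of the 6487 genes, 1.46% were called. Intervals are 95% intervals of the fit. Exact permutation tests over all splits of the animals used scipy (1.17.1). P-values weigh a difference between groups against the spread between these animals, and the counting coefficients of variation cover counting error only. At these depths 3 counts corresponded to 0.545 to 0.937 CPM. The libraries were compared for duplicates, and all 55 pairs differed beyond sampling noise.

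Named genes were the 10 genes, of each pathway role the 2 with the highest mean count and any past the threshold, marker genes past the threshold, the 3 genes most like Mme and Ide, and Abi3; Serpini1 was added after its values were seen. The genes and lists were chosen with earlier results of these data known. Alternatives were edgeR (4.0.16, quasi-likelihood), limma (3.58.1, voom with sample weights), TMM factors, a stricter or no filter of low counts, independent filtering off or at 0.1, the replicate number as a block, reads in or outside genes as a covariate, and leaving out each animal; leaving out 3 animals with choroid plexus RNA was chosen after seeing the data. Fits were tested on simulated data. The name of 1 marker gene is not reported here.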

Additional observations from a re-analysis of the deposited data

Results flagged for a closer look

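Of 24 groups of normalized counts examined, those of the 10 genes, Ttr and Serpini1 in each genotype, 1 held a sample far from the others, where chance gives about 1 in 20. Ttr encodes transthyretin, an Aβ-binding carrier that is the leading transcript of the choroid plexus. Abi3_WT replicate 4 had 3447 normalized counts of Ttr, and the nearest wild type had 94.7. Abi3_KO replicates 1 and 5 had 1847 and 2270, and the other 3 knockouts had 72.7, 152 and 85.8. With all animals the log2 fold change of Ttr was 0.48 with an SE of 1.34 (adjusted p = 0.933 in DESeq2), and without Abi3_WT replicate 4 it was 3.65 (adjusted p = 0.0141), so that 1 animal decides this call.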

How the results depend on the processing

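None of the 10 genes passed the threshold under any of the 22 alternatives, with 0.417 (Itm2b) as the lowest adjusted p and 2 of 220 unadjusted p-values under 0.05 (Itm2c without Abi3_WT replicate 5, Itm2b without Abi3_KO replicate 1). Most DESeq2 alternatives gave no adjusted p to Mme, Ece2, Plat and Mmp14, and some gave none to Ide or Ece1. These genes could not pass in those fits. In edgeR, limma and DESeq2 with independent filtering off, all 10 genes had an adjusted p. Itm2b and Itm2c kept their direction throughout. The direction of small differences did not hold: 25 of 220 estimates changed sign. The 220 include settings that change the filtering alone (the stricter filter of low counts, independent filtering off or at 0.1). These repeat the estimates and unadjusted p-values of the fit reported, so they could change neither. With reads outside genes as a covariate the log2 fold change was -0.037 for Mme, 0.118 for Ece2, 0.056 for Lrp1 and 0.018 for Vldlr. In that fit the SE for Mme was 0.570, against 0.301 in the fit reported. The share itself differed between genotypes, so the fit separates the covariate from genotype only poorly. With reads in genes as a covariate it was -0.0023 for Mme and -0.053 for Ide, and in limma -0.0039 for Ide. Without the 3 animals with choroid plexus RNA it was -0.016 for Mme, -0.058 for Ide and -0.074 for Ece1. With each animal left out in turn, the estimates ran from 0.016 to 0.368 for Mme, -0.083 to 0.198 for Ide, 0.057 to 0.191 for Ece1, -0.382 to -0.110 for Ece2, -0.266 to 0.059 for Plat, -0.380 to 0.028 for Mmp14, -0.061 to 0.020 for Lrp1 and -0.054 to 0.037 for Vldlr. The cause of these changes was not tested.

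The number of genes past the threshold, 95 in the fit reported, was 37 in edgeR, 20 in limma, 57 with independent filtering off, 3 with reads outside genes as a covariate, 27 without the animals with choroid plexus RNA and 46 to 120 with 1 animal left out; the lowest were 46 without Abi3_KO replicate 2, 47 without Abi3_KO replicate 5, 48 without Abi3_WT replicate 6 and 61 without replicate 1 of either group. The 60 higher and 35 lower genes became 17 and 20 in edgeR, 11 and 9 in limma, 29 and 28 with independent filtering off, 43 and 33 with TMM factors, 55 and 19 with reads in genes as a covariate and 22 and 5 without the animals with choroid plexus RNA. Pathway genes past the threshold numbered 0 to 1 with 1 animal left out (Ttr), and markers 0 to 1 (C1qa without Abi3_WT replicate 1 or Abi3_KO replicate 3, Ttr).

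Replicate numbers 1 to 5 occur in both groups but name different animals, and deviations of same-numbered animals correlated by -0.00887, 0.168, 0.144, -0.0842 and 0.0811, so they were not taken as pairs. With the replicate block 33 genes passed, 0 of the 10 genes and 1 marker. That fit gave no adjusted p to Mme, Ide, Ece1, Ece2, Plat and Mmp14. The intervals of Ece2, Mme and Mmp14 allow folds from 0.459 to 1.77; counting error makes up most of the spread of Ece2, but not of Mme and Mmp14.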
